A study of Mus musculus with 23 samples.

Results

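The genes described here are the peroxisome proliferator-activated receptors (PPARs), the retinoid X receptors (RXRs) that pair with them, and the coregulators that these pairs recruit. They were chosen by name, with earlier results of these data known. The 9 genes were the receptors Ppara, Ppard and Pparg, the partners Rxra and Rxrb, the corepressor Ncor1, and the coactivators Ncoa1, Ppargc1a and Ppargc1b. A probe belonged to a member when its RefSeq transcript was that gene's, which gave 16 probes, among 26582 probes of 20145 genes that could be named on the array. The cells were TM4, an immortalized line derived from immature mouse Sertoli cells, the somatic cells that nurse germ cells in the testis. Cultures were treated for 48 hr with 100 µM of 1 of 5 plasticizers, and every culture, treated or control, also carried 1% DMSO as vehicle. The compounds were MEHP, the active monoester metabolite of the phthalate plasticizer DEHP, DINCH, a commercial cyclohexane dicarboxylate replacement, and the synthesized candidates dioctyl maleate (DOM), dioctyl succinate (DOS) and 1,4-butanediol dibenzoate (BDB). RNA from 4 cultures per group, and 3 for DOS, was hybridized to 1-colour Agilent arrays, 23 in all. The methods call these cultures biological replicates and do not say what separated them, so p-values measure the spread between these arrays.

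PPARs are nuclear receptors for fatty acids and many synthetic ligands, and they bind DNA only as a pair with an RXR. Without ligand such a pair holds corepressors such as NCOR1, and ligand binding exchanges them for coactivators such as NCOA1 and the PGC-1 proteins, which Ppargc1a and Ppargc1b encode. The known targets are mostly genes of fatty acid transport and oxidation. Sertoli cells burn fatty acids, and several phthalate monoesters, MEHP among them, are known PPAR ligands. An array measures the messenger of the receptor or coregulator, not its occupancy or activity.

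A level is given below as log2 of the spot's processed intensity minus the 75th percentile of its array, so 0 is a bright probe and each unit is a doubling. Levels of different probes cannot be set against each other. A gene was called when a probe differed from DMSO at an adjusted p below 0.05 (limma, Benjamini-Hochberg over all probes tested) and by more than 1.5-fold, which is 0.585 on the log2 scale. The 75th percentile of intensity lay between 204.61 and 350.67 on the 23 arrays, 43.4% to 52.18% of spots were well above background, and none was saturated. All 5 comparisons used the same 4 DMSO arrays. Of 20 Sertoli cell markers, 11 were above background on all 4 DMSO arrays, Sox9, Gata4 and Dmrt1 among them, and 8 on none, including Wt1, Amh and Fshr. The same held for 5 of 7 markers of peritubular myoid cells and fibroblasts, 2 of 4 of endothelium, and 1 each of 6 Leydig cell, 6 germ cell and 3 macrophage markers. MEHP, DINCH and BDB arrays lay in rows 1 and 3 of the slides and DMSO, DOM and DOS arrays in rows 2 and 4, so row and treatment cannot be told apart for the first 3 compounds.

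All 9 genes had at least 1 probe that passed the filter on dim probes, and 13 of the 16 probes were tested. Treatment with DINCH gave 2 called members, Rxra and Ppargc1a, both higher, where 8.26% of all genes tested were called, 4.25% higher and 4.02% lower. Treatment with DOM gave 1, Ppargc1b, which was lower, where 20.5% of all genes tested were called, 9.9% higher and 10.6% lower. The Ppargc1b probe passed the filter only through the DMSO arrays. The filter thus favoured a lower value, and no support is drawn from its call. MEHP gave 0 with limma, against 1.68% of all genes (1.13% higher and 0.552% lower), and 2 of its 13 member probes had an unadjusted p below 0.05. BDB and DOS also gave 0, and for each of them 0% of all genes tested were called. Unadjusted p fell below 0.05 for 2 member probes under BDB and for 0 under DOS. With so few members, counts of 1 and 2 cannot be read as a share above or below those of all genes. The paper's pathway tables had already listed Rxra as higher under DINCH and Ppargc1b as lower under DOM, so these counts are descriptions.

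**Figure D1:**
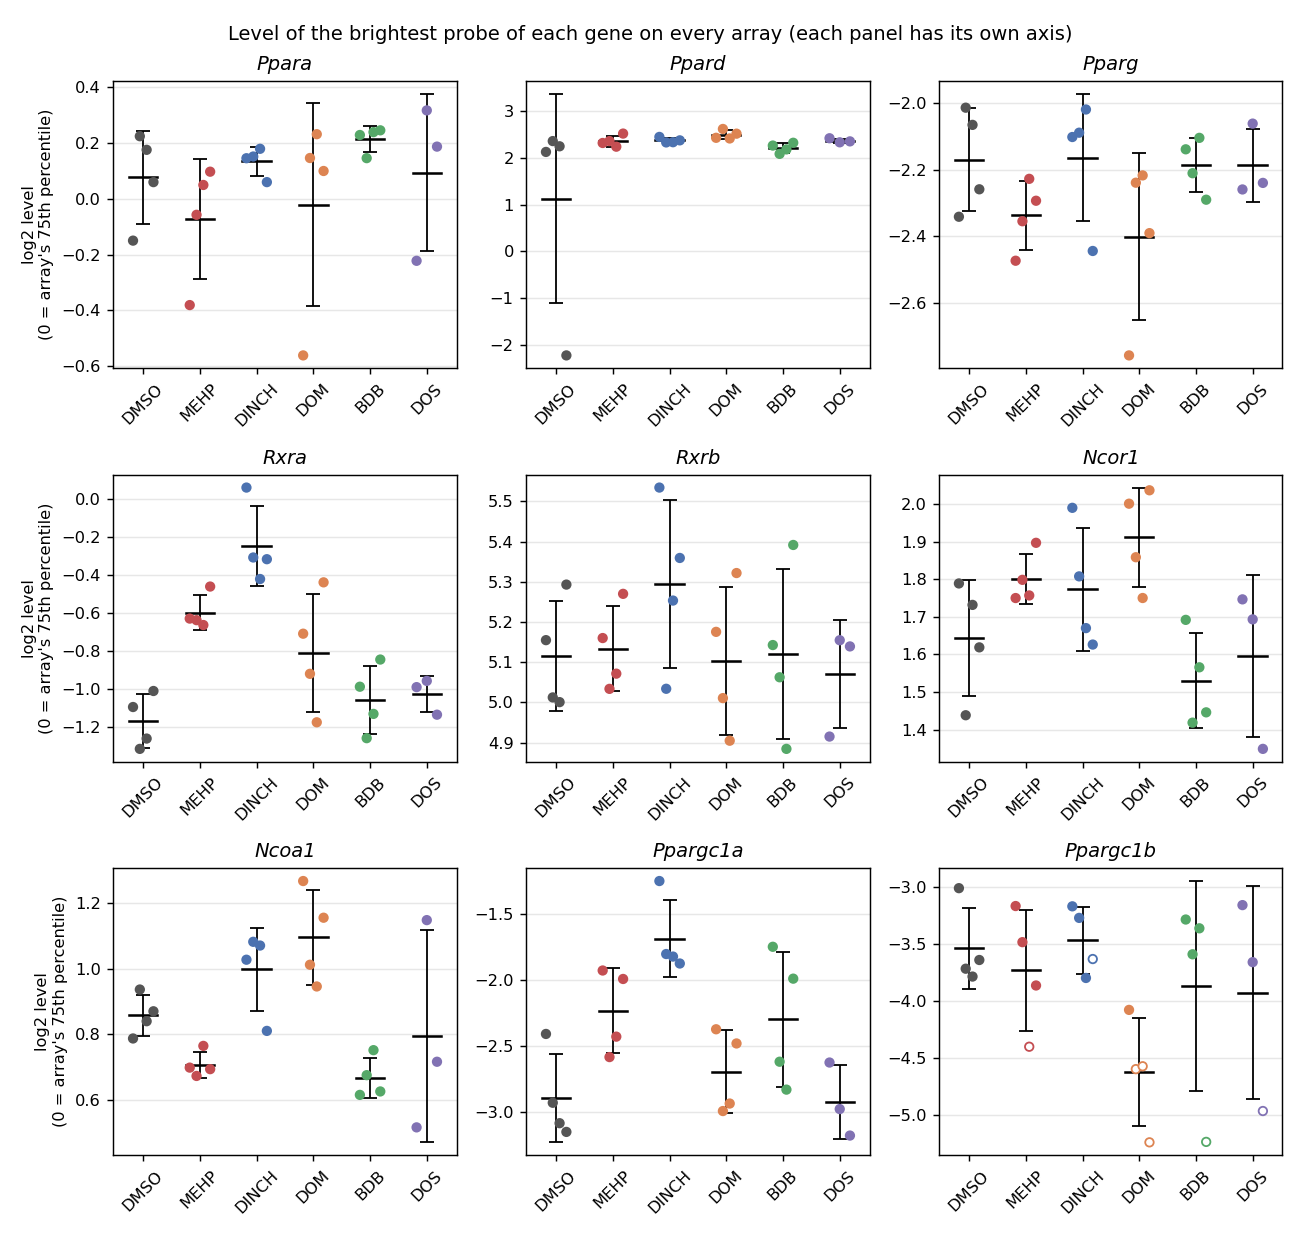
Level of the brightest probe of each gene, log2 relative to the array's 75th percentile, on the 23 arrays. Points are arrays, open points were not well above background, and bars give the mean and SD of 4 arrays (3 for DOS). Rxra and Ppargc1a sat highest in DINCH arrays, Ppargc1b sat lowest in DOM arrays, and Ppard showed a single DMSO array at -2.22.

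None of the 3 receptors was called under any compound. Ppara, the receptor that drives fatty acid oxidation in liver, read -0.15, 0.22, 0.18 and 0.06 on the DMSO arrays by its brightest probe. The MEHP arrays read -0.38, -0.06, 0.05 and 0.10, within or just below that range. The largest difference from DMSO was -0.15 for MEHP (SE 0.13, adjusted p = 0.623), with a 95% interval from -0.44 to 0.14. For DINCH it was 0.06 (SE 0.11), for DOM -0.10 (SE 0.18), for BDB 0.14 (SE 0.10) and for DOS 0.02 (SE 0.16). Every one of these intervals stayed inside 1.5-fold.

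Ppara had another pair of probes, both too dim to be tested. The dimmest was above background on 0 of the 23 arrays. The other was above background on 3 arrays, DOM replicates 1 and 3 and DOS replicate 3, and on 0 of 4 DMSO arrays. Its measured means were -3.88 for DOM (SD 0.39, n = 4) and -4.72 for DMSO (SD 0.15, n = 4). The DOM mean was 1.4-fold above a DMSO level set at the dimmest signal that an array still scored as detected. Only 2 of the 4 DOM arrays detected the probe, so this is not a lower limit. The probe could enter a test only through the DOM arrays where it was detected, so no difference or call is drawn from it.

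Pparg, the receptor best known from fat cells, was printed as 10 spots of a single probe, so each array's value is a mean of up to 10 measurements. It read -2.34, -2.01, -2.06 and -2.26 on the DMSO arrays. DINCH arrays lay between -2.44 and -2.02, BDB arrays between -2.29 and -2.10 and DOS arrays between -2.26 and -2.06, all overlapping DMSO. MEHP (-2.47 to -2.23) and DOM (-2.76 to -2.22) reached lower. The differences were -0.17 for MEHP (SE 0.10, adjusted p = 0.463) and -0.23 for DOM (SE 0.14, adjusted p = 0.245), and 0.02 or less in size for the other 3 compounds. The widest interval, for DOM, ran from -0.55 to 0.09, again inside 1.5-fold.

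Ppard, the receptor found in most tissues, had the largest apparent rise of all members under every compound, between 1.08 and 1.36, and none of it passed the test. The values on the DMSO arrays were 2.12, 2.36, 2.24 and -2.22. The first 3 lay within the range of the treated arrays, which ran from 2.08 to 2.61 over all 19. DMSO replicate 4 alone lay more than 4 units lower. Its spot had an intensity of 50.3, against 1110 to 1884 on the other 22 arrays, and the extraction software had not marked it as an outlier.

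The spots around it were dim on that array as well. Of the 18 bright spots within 3 rows and columns of the Ppard spot, 12 lay more than 2 log2 units below their own median over the 23 arrays, and the median deviation of the 18 was -4.22. On DMSO replicates 1, 2 and 3 the same neighbours deviated by 0.01, 0.03 and -0.02 and none lay more than 1 unit below. DMSO replicate 4 held 86 bright spots that were over 3 units below their median, of 21817, while the other DMSO arrays held 0. Among the treated arrays DOM replicate 4 held 38, and the rest held between 0 and 8.

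**Figure D2:**
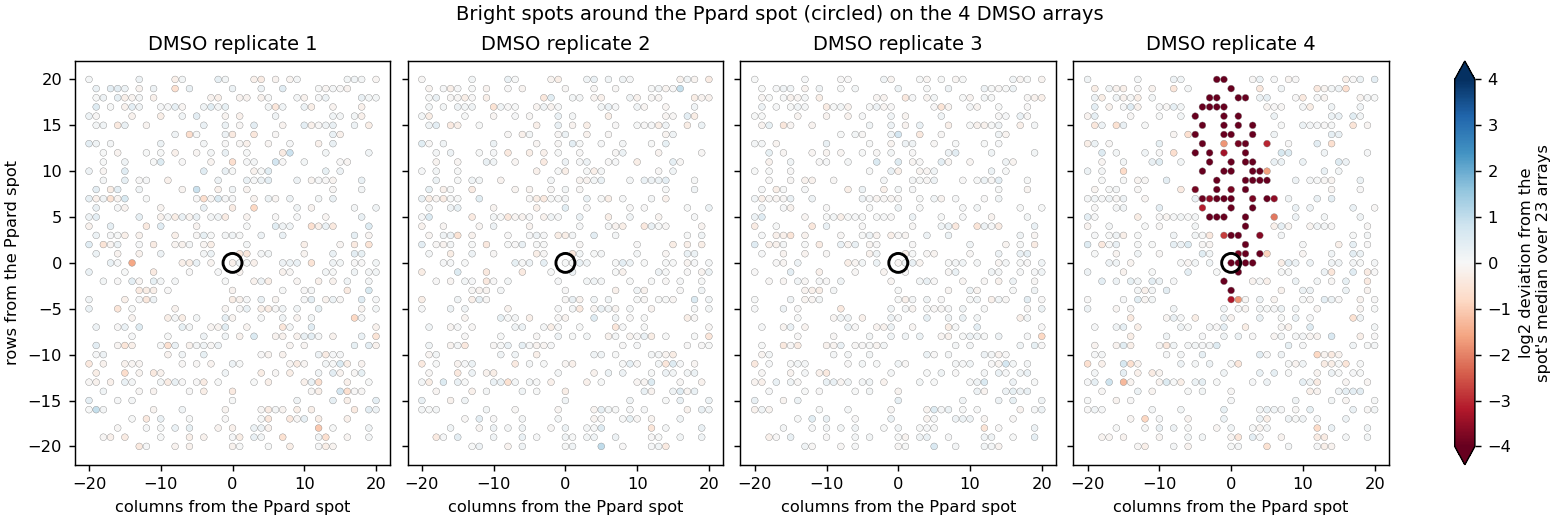
Bright spots of the 4 DMSO arrays by rows and columns from the Ppard spot, which is circled. Colour gives each spot's log2 deviation from its own median over the 23 arrays, cut at -4 and 4. A group of dark red spots surrounds the Ppard spot on DMSO replicate 4, where the median deviation of its 18 nearest bright neighbours was -4.22, and is missing from the other 3.

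Without that spot, an alternative added after the values were seen, Ppard differed from DMSO by 0.11 for MEHP (SE 0.10), 0.13 for DINCH (SE 0.10) and 0.12 for DOS (SE 0.11). DOM gave 0.25 (SE 0.11, adjusted p = 0.116) and BDB -0.03 (SE 0.10, adjusted p = 0.928), so the direction turned for BDB. Between compounds, which this array does not enter, the widest gap was DOM over BDB, 0.28 (SE 0.10, adjusted p = 0.0785). That interval ran from 0.07 to 0.50.

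Of the RXR partners, only Rxra was called, and only under DINCH. Rxra, which encodes RXRα, was 1.9-fold higher after DINCH by its brighter probe. The DMSO arrays read -1.10, -1.32, -1.26 and -1.01, and the DINCH arrays 0.06, -0.31, -0.42 and -0.32. Every DINCH array lay above every DMSO array, and the difference was 0.92 (SE 0.13, adjusted p = 0.00537, 95% interval 0.63 to 1.21). Within the 3 slides it was 1.15, 0.98 and 0.64. With normexp background correction it was 0.61 and still called, and without the filter on dim probes the call was not made (adjusted p = 0.0578). In a whole culture, more RNA per cell and more cells that hold it cannot be told apart.

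After MEHP, Rxra read -0.63, -0.64, -0.66 and -0.46, also above every DMSO array. The difference of 0.57 (SE 0.09, adjusted p = 0.0229) passed the p limit and fell just short of 1.5-fold, so it was not called. It was 0.46, 0.62 and 0.55 within the slides. The call was made without DMSO replicate 1 (0.60) or without DMSO replicate 4 (0.62), and with quantile normalization (0.60). Leaving out any other DMSO or MEHP array lost the p limit as well, with adjusted p between 0.0529 and 0.084. So did normexp background correction (adjusted p = 0.0581), detection on 1 array (0.0602) and no filter on dim probes (0.224).

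DOM arrays overlapped DMSO at -0.71, -0.92, -1.18 and -0.44, with a difference of 0.36 (SE 0.16, adjusted p = 0.117). BDB (0.11, SE 0.12) and DOS (0.14, SE 0.11) lay nearest to DMSO. From the highest mean level down, the groups ran DINCH, MEHP, DOM, DOS, BDB and DMSO. Among neighbours in this order the arrays overlapped except those of DINCH and MEHP, which differed by 0.35 (SE 0.12, adjusted p = 0.0759).

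The dimmer Rxra probe, assigned to the same RefSeq transcript, did not share the pattern. It read -2.91, -2.97, -2.64 and -3.04 on the DMSO arrays and -3.55, -2.77, -2.77 and -3.06 on the DINCH arrays. The difference was -0.15 for DINCH (SE 0.18, adjusted p = 0.664) and -0.09 for MEHP (SE 0.15). Over the 23 arrays Pearson's r between the probes was -0.24, a description over arrays that share groups and slides. The rise of Rxra under DINCH therefore rests on a single probe and a single spot per array, and the dimmer probe's interval for DINCH (-0.55 to 0.26) does not reach it.

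**Figure D3:**
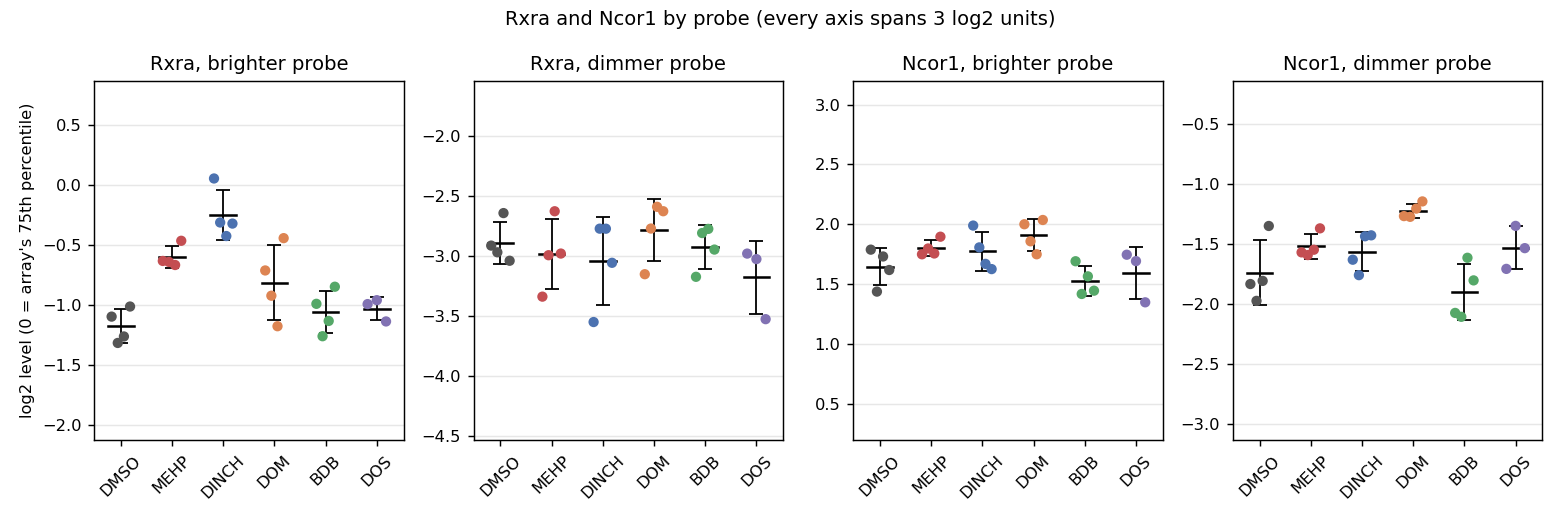
Levels of the brighter and dimmer probe of Rxra and Ncor1 on the 23 arrays, log2 relative to the array's 75th percentile, with the mean and SD of each group. The DINCH arrays stood above DMSO by 0.92 on the brighter Rxra probe and lay at -0.15 from it on the dimmer probe, while DOM stood 0.27 and 0.52 above DMSO on the Ncor1 probes.

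Rxrb, which encodes the other partner RXRβ, was not called under any compound. The DMSO arrays read 5.15, 5.01, 5.0 and 5.29 and the DINCH arrays 5.53, 5.03, 5.25 and 5.36. The difference was 0.18 for DINCH (SE 0.13, adjusted p = 0.427) and between -0.05 and 0.02 for the other compounds. All 5 intervals stayed inside 1.5-fold, the widest reaching 0.47 for DINCH.

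Ncor1, the corepressor that anchors histone deacetylase 3 to unliganded receptors, was not called against DMSO under any compound. The paper's pathway table, also at a 1.5-fold limit, lists it as higher under DOM. Why the calls differ was not tested. Its brighter probe read 1.79, 1.44, 1.73 and 1.62 on the DMSO arrays and 2.00, 1.86, 1.75 and 2.04 on the DOM arrays, a difference of 0.27 (SE 0.11, adjusted p = 0.104). The dimmer probe read -1.84, -1.98, -1.81 and -1.35 under DMSO and -1.27, -1.27, -1.21 and -1.15 under DOM. There every DOM array lay above every DMSO array, and the difference of 0.52 (SE 0.14, adjusted p = 0.0189) passed the p limit but not 1.5-fold. Without DMSO replicate 4 the difference was 0.65 (SE 0.10, adjusted p = 0.00326) and Ncor1 was called. Without DMSO replicate 3 the p limit was lost (adjusted p = 0.0529), and likewise without the filter on dim probes (0.109). Leaving out DMSO replicate 1 or 2 or DOM replicate 4 gave 0.0495 to 0.0497. Under the other 4 compounds the 2 probes differed from DMSO by at most 0.22 in size.

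Ncoa1, the coactivator also called SRC-1, was not called under any compound. Its brightest probe read 0.79, 0.94, 0.84 and 0.87 on the DMSO arrays. MEHP arrays (0.67 to 0.77) and BDB arrays (0.62 to 0.75) lay below all of these, with differences of -0.15 (SE 0.07, adjusted p = 0.337) and -0.19 (SE 0.08, adjusted p = 0.316). DOM arrays (0.95 to 1.27) lay above all of them, at 0.24 (SE 0.10, adjusted p = 0.104). The next probe gave 0.34 for DOM (SE 0.12, adjusted p = 0.0497), under 1.5-fold, and these 2 probes followed each other with r = 0.82 over the 23 arrays.

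The dimmest of the 3 Ncoa1 probes gave -0.63 for MEHP (SE 0.48, adjusted p = 0.575). Its MEHP arrays included replicate 3 at -2.94, where the other MEHP arrays lay between -0.72 and -0.60. Of 13 bright neighbours of that spot, 7 lay more than 1 unit below their own median on that array, and their median deviation was -1.10. Without the spot the difference was -0.07 (SE 0.14, adjusted p = 0.857). Apart from this spot and the Ppard spot, the neighbours of the member spots had median deviations between -0.34 and 0.29 over all 621 spot and array pairs.

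Ppargc1a encodes PGC-1α, the coactivator that raises mitochondrial and fatty acid oxidation genes in muscle, brown fat and fasted liver. It was 2.31-fold higher after DINCH. The DMSO arrays read -2.41, -2.93, -3.08 and -3.15, and the DINCH arrays -1.25, -1.80, -1.82 and -1.87. Every DINCH array lay above every DMSO array, with a difference of 1.21 (SE 0.20, adjusted p = 0.00848, 95% interval 0.77 to 1.65). Within the slides it was 1.16, 1.20 and 1.30. With normexp background correction it was 0.64 and still called, and without the filter on dim probes the call was not made (adjusted p = 0.0745).

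MEHP arrays read -1.93, -2.58, -2.43 and -1.99 and overlapped DMSO only through DMSO replicate 1. The difference was 0.66 (SE 0.20, adjusted p = 0.144). BDB arrays spread from -2.83 to -1.75, with a difference of 0.60 (SE 0.26, adjusted p = 0.328). DOM (0.20, SE 0.20) and DOS (-0.03, SE 0.21) overlapped DMSO throughout. From the highest mean level down, the groups ran DINCH, MEHP, BDB, DOM, DMSO and DOS. The groups of slide rows 1 and 3 thus lay above all those of rows 2 and 4, and row and treatment cannot be told apart here. DINCH against BDB, which share rows, gave 0.61 and was not called (adjusted p = 0.126). DINCH and MEHP did not overlap each other, and their difference of 0.55 had an adjusted p of 0.0823. The other Ppargc1a probe was above background on 0 arrays and says nothing about this pattern.

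Ppargc1b encodes PGC-1β, a relative of PGC-1α with overlapping targets, and it was called lower after DOM. The DMSO arrays read -3.01, -3.72, -3.79 and -3.64, and the DOM arrays -4.08, -4.60, -4.57 and -5.24, all below DMSO. The difference was -1.08 (SE 0.25, adjusted p = 0.0111), and within the slides -1.33, -0.82 and -1.60. The probe was dim: it was well above background on 16 of the 23 arrays, all 4 of DMSO but 1 of 4 of DOM. With 3 of the 4 DOM values at background, the size of the difference is not exact. The probe entered each test only through the DMSO arrays, so the filter favoured a lower value in the compound and no support is drawn from the call. The call was not made with quantile normalization (-0.89, adjusted p = 0.0544), with normexp background correction (-0.29, adjusted p = 0.0516) or without the filter on dim probes (adjusted p = 0.0603). DINCH arrays (-3.80 to -3.17) lay within or near the DMSO range, while 2 MEHP arrays (-4.40 and -3.87), 1 BDB array (-5.24) and 1 DOS array (-4.97) lay below it.

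**Figure D4:**
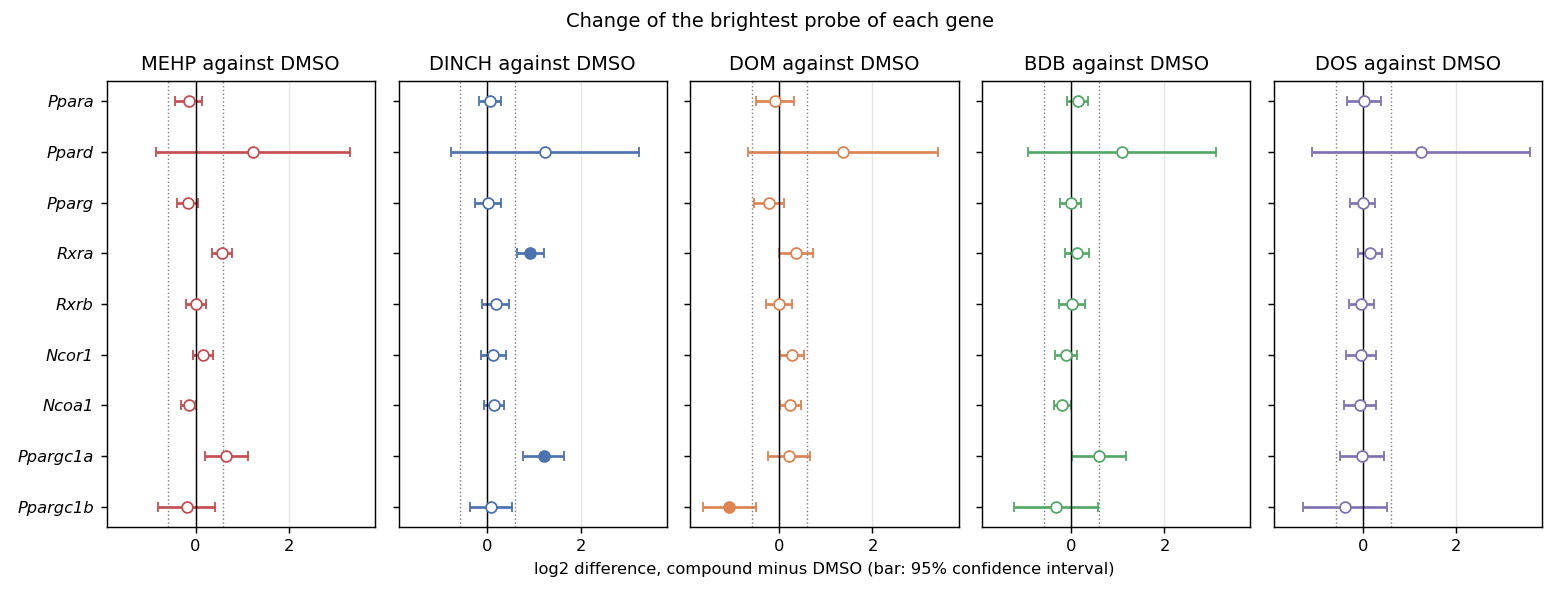
Difference from DMSO of the brightest probe of each gene, on the log2 scale, for the 5 compounds. Bars are 95% confidence intervals, filled points were called, and dotted lines mark 1.5-fold in either direction. Only Rxra (0.92) and Ppargc1a (1.21) under DINCH and Ppargc1b (-1.08) under DOM are filled. The Ppargc1b probe was tested only because the DMSO arrays detected it. The Ppard intervals are wide because of a single DMSO array.

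Rxra, on the brighter of its probes but not the dimmer (-0.15), and Ppargc1a were called higher under DINCH. Row and treatment cannot be told apart in either difference. Against BDB, in the same rows, Rxra was called (0.81) and Ppargc1a was not (0.61). The stretch before the start sites of both genes is shown to set them side by side. The sequences are the 250 bases before the first RefSeq start on build GRCm38.p6, at chr2:27676951-27677200 on the + strand for Rxra and at chr5:51567726-51567975 on the - strand for Ppargc1a, written 5′ to 3′ with matches to the motifs searched in capitals.
Rxra: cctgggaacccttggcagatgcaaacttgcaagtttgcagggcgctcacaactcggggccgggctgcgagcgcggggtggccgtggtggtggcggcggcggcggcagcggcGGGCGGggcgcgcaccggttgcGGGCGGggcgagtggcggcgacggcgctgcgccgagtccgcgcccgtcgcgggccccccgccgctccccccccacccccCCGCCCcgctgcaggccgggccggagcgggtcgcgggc
Ppargc1a: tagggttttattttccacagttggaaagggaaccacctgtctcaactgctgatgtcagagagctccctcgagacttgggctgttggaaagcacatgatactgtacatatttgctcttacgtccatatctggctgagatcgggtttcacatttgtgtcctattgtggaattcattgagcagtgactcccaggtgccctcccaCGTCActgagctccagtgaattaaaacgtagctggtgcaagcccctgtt
The motifs were the nuclear receptor half-site AGGTCA, the direct repeat AGGTCANAGGTCA that PPAR and RXR pairs bind, the cAMP response element TGACGTCA and its half-site TGACG, the GC box GGGCGG and the E-box CACGTG, each on both strands. The half-site TGACG lies within TGACGTCA, AGGTCA lies within the direct repeat, and TGACG was added after the other motifs had given no match in Ppargc1a. The capitals in Rxra are 3 GC boxes, a motif held by 32.7% of all 32851 promoters of this length. Those in Ppargc1a are a TGACG half-site on the reverse strand, 44 bases before the start, a motif held by 17.8% of promoters. Bases G and C made up 81.2% of the Rxra stretch and 48% of the Ppargc1a stretch. Of the 8 members searched, 7 held a GC box before at least 1 of their starts, Ppargc1a being the exception. The half-site AGGTCA, in 14% of all promoters, was found for Pparg and, before its other start, for Rxra, and the direct repeat, in 0.0335%, for 0 of the 8. These matches describe the letters and no binding was measured.

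All compounds were given at the same dose for the same time, so they could be set against each other. DOM and DOS arrays lay in other slide rows than MEHP, DINCH and BDB arrays, and between these sets row and compound cannot be told apart. Over the 10 pairs, with p-values adjusted over all probes of all pairs together, 5 combinations of a member and a pair were called, where 10.8% of all gene and pair combinations tested were called. Ppargc1b entered none of them, since no compound had it above background on every array. Of the 5, 4 set DINCH against another compound, and 4 set compounds of different rows against each other, all but Rxra for DINCH against BDB. Rxra was higher after DINCH than after BDB by 0.81 (SE 0.13, adjusted p = 0.0039, 9.94% of genes called) and than after DOS by 0.78 (SE 0.14, adjusted p = 0.0068, 5.9% of genes called). Ppargc1a was higher after DINCH than after DOS by 1.24 (SE 0.19, adjusted p = 0.0036) and than after DOM by 1.01 (SE 0.19, adjusted p = 0.0069, 22.2% of genes called). The comparison with BDB gave 0.61 for Ppargc1a (SE 0.24, adjusted p = 0.126), and with the replicate number as a block this passed (adjusted p = 0.0413). The fifth was Ncor1, higher after DOM than after BDB by 0.68 on the dimmer probe (SE 0.12, adjusted p = 0.0063, 26.1% of genes called), while the brighter probe gave 0.38 (SE 0.11, adjusted p = 0.0396), under 1.5-fold. No member was called between MEHP and DOM, BDB or DOS, where 18.6%, 3.22% and 1.44% of genes were, nor between BDB and DOS, where 2.25% were. Some differences passed the p limit but not 1.5-fold. The brighter Rxra probe gave 0.46 for MEHP over BDB (adjusted p = 0.0175) and 0.43 over DOS (0.0179), and the dimmer probe -0.06 and 0.19. For MEHP minus DOM the brightest Ncoa1 probe gave -0.39 (0.0214), the next -0.51 (0.0125) and the dimmer Ncor1 probe -0.30 (0.0413). Ppargc1a lay close to the limit for MEHP over DOS (0.69, SE 0.20, adjusted p = 0.0512), and it was called there with the replicate block, a variance trend, the brightest probes only or the authors' table, and without MEHP replicate 2 or DOS replicate 1. Ppargc1b was called between MEHP and DOM without MEHP replicate 3. The same held for DINCH, BDB and DOS, each against DOM, without replicate 4 of that compound. Each array left out was the only one of its group where the probe was not well above background. The probe then entered the test through that group alone, so no difference is drawn from these calls. With the slide as a block, Ppargc1a was called between BDB and DOS.

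DOM and DOS share the same dioctyl ester arms and differ in the core, an unsaturated maleate against the saturated succinate. No member was called between them with limma, where 14.7% of all genes were, and for the members these 4 and 3 arrays leave the following intervals. For Rxra DOM minus DOS was 0.22 (95% interval -0.18 to 0.61), for Ppargc1a 0.23 (-0.22 to 0.69), for Ncoa1 0.30 (-0.07 to 0.68) and for Ncor1 0.32 (0.01 to 0.63). For Ppara it was -0.11 (-0.61 to 0.38) and for Pparg -0.21 (-0.56 to 0.13). Ppard (0.13, -0.11 to 0.36) and Rxrb (0.03, -0.27 to 0.34) had, like Pparg, intervals inside 1.5-fold, and the others did not exclude a difference of that size. MEHP is a monoester of an aromatic ring and DINCH a diester of a saturated ring, and the pair gave 0 called members, with 3.48% of all genes called. The gaps of Rxra (0.35 in favour of DINCH) and Ppargc1a (0.55 in favour of DINCH) had 95% intervals that excluded 0, and adjusted p-values of 0.0759 and 0.0823.

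The other genes of the pathway were read from 4 lists. These lists were chosen with earlier results of these data known, so their counts are descriptions and not independent support. Of 27 other coregulators, 26 were tested. Under DINCH 1 was higher and 1 lower, where 8.26% of all genes were called. These were Lpin1 (1.11, SE 0.20, adjusted p = 0.0115) and Asxl2 (-0.85, SE 0.23). Lpin1 encodes lipin 1, a phosphatidate phosphatase that also coactivates PPARα with PGC-1α. Lpin1 was also called under MEHP (1.16, SE 0.14, adjusted p = 0.0085), alone in its list, where 1.68% of all genes were called, and under DOM (1.26, SE 0.16, adjusted p = 8.0e-04). It thus rose under the 3 compounds with any called gene. DOM called 4 of the 26 in all, where 20.5% of all genes were called, with Tacc1 (0.84) and Cited2 (0.74) higher and Prmt1, an arginine methyltransferase, lower (-0.61). The median change of the list lay between -0.07 and 0.03 under the 5 compounds, against -0.08 to -0.01 for all probes tested.

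Among 8 tested genes of other RXRs and RXR partners, 3 were called higher under DOM, where 9.9% of all genes were, namely the orphan receptors Nr4a1 (1.71, SE 0.19, adjusted p = 4.2e-04) and Nr4a2 (0.87) and, on its dimmer probe, the thyroid hormone receptor Thra (0.85). The brightest Thra probe gave 0.25 (SE 0.13, adjusted p = 0.170). Nr4a1, the 1 gene of the list called under DINCH, fell by 0.60 (SE 0.12, adjusted p = 0.0193), where 8.26% of all genes were called. That count of 1 became 0 without DMSO replicate 1, DMSO replicate 3 or DINCH replicate 1 and 2 without DMSO replicate 4. The list's median under DOM was 0.39, beside -0.08 for all probes tested. Of 9 tested transcription factors that work with PGC-1, Nrf1, a regulator of mitochondrial genes, fell under DINCH (-0.74) and DOM (-0.75), and Foxo1 rose under DOM (0.90). Under DINCH 1 of the 9 was thus called, where 8.26% of all genes were, and under DOM 2, where 20.5% were. The list's median under DINCH was -0.36 beside -0.01 for all probes tested, with 1 of 9 brightest probes above 0. It was also low under DOM (-0.30 beside -0.08, 3 of 9 above 0) and MEHP (-0.15 beside -0.04, 2 of 9 above 0). Under BDB and DOS it was -0.02 and -0.03.

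Target genes of PPARs were called under MEHP, DINCH and DOM, and under each of these 0 of the 3 receptors were called. Of 34 tested, 6 rose and 0 fell under MEHP, where 1.68% of all genes were called, led by Pdk4, the kinase that turns off pyruvate oxidation (3.61, SE 0.08, adjusted p = 1.6e-07), Angptl4, a secreted inhibitor of lipoprotein lipase (3.27, SE 0.23), Cpt1a, the gate of fatty acids into mitochondria (1.1 on its brightest probe), and Ucp2 (0.83). The paper had already reported Pdk4, Angptl4 and Cpt1a as higher under MEHP, so the count beside the share of all genes is a description. Without the filter on dim probes 2 were called under MEHP. Under DOM 9 rose and 4 fell, where 20.5% of all genes were called, with Pdk4 (3.46), Angptl4 (3.02) and Cpt1a (2.00) higher and Fgf21, a fasting hormone, lower (-2.80). Under DINCH 1 rose, Pdk4 (1.20, SE 0.22, adjusted p = 0.0129), and 2 fell, Angptl4 (-2.72, SE 0.40, adjusted p = 0.0062) and Lpl (-1.06), where 8.26% of all genes were called. That count of 3 became 0 without the filter and 5 with the replicate block or with all groups in 1 fit. BDB and DOS called 0 in this list and in the other 3, as among all genes, except that 1 target was called under DOS without DOS replicate 3. Pdk4 read 1.02 under DOS (SE 0.12, adjusted p = 0.339). The list's medians were 0.26 under MEHP, 0.06 under DINCH and 0.28 under DOM, and -0.10 and 0.06 under BDB and DOS.

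**Figure D5:**
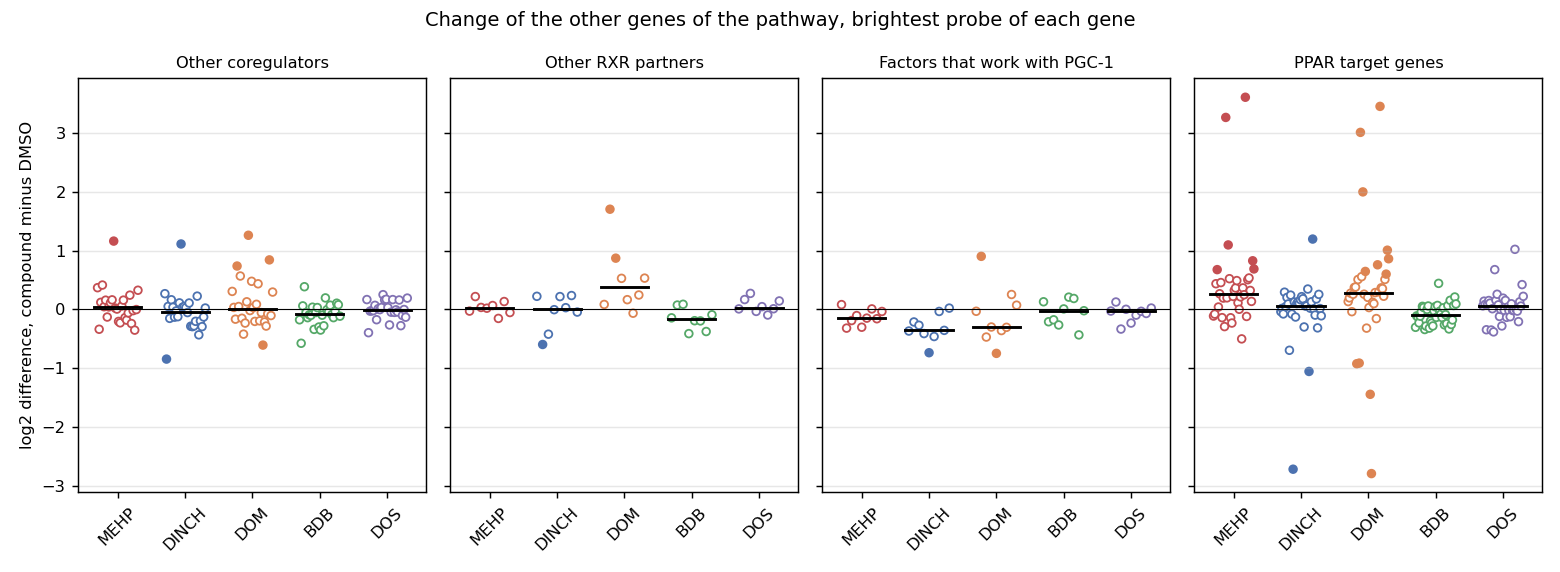
Difference from DMSO on the log2 scale for the brightest probe of each gene in 4 lists of the pathway, under the 5 compounds. Each point is a gene, filled points had that probe called, and black lines are the list's medians. Filled points are found under MEHP, DINCH and DOM, and the PPAR target genes reach 3.61 under MEHP and 3.46 under DOM.

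For each member, the genes whose levels followed it most closely over the 23 arrays were taken by Spearman's rho over 14510 probes, as a description over arrays that share groups and slides. Rxra ran closest to Sil1, a chaperone cofactor of the endoplasmic reticulum (0.94), and Nos3, endothelial nitric oxide synthase (0.92). Ppargc1a ran closest to Pcx, pyruvate carboxylase (0.91), and Zc3h6 (0.90), and Ppargc1b to Mis18a and Crk (0.86 each). The closest for the other members were Tnfrsf11a for Ppara (0.88), Ctsd for Ppard (0.87), Fbxo39 for Pparg (0.88), Trmt1 for Rxrb (0.89), Cemip2 for Ncor1 (0.89) and Dzip1 for Ncoa1 (0.88).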

How the data were processed

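The authors labelled RNA with Cy3, hybridized it to Agilent SurePrint G3 arrays and extracted spots with Feature Extraction, which subtracted background and marked outliers. The deposited intensity (processed signal) is linear and unscaled. A deposited table of log2 values, which the authors shifted to the 75th percentile and centred on probe medians, served as an alternative (column medians -0.361 to 0.183, lowest correlation with its own array 0.9996). The study left out a DOS replicate for high background.

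Here log2 intensity (floor of 1) was centred on each array's 75th percentile. Outlier spots (102 to 187 an array) were dropped, and replicate spots were averaged. Probes were named through RefSeq accessions, and a gene was represented by its brightest probe. Array design and name table use different genome builds, so probes have no positions here. Testing required a probe to be well above background, and not below its array's 20th percentile, on all arrays of at least 1 group. Compounds were compared with DMSO and with each other by limma 3.58.1 in R 4.3.3, Benjamini-Hochberg adjusted. Values are given for all 9 members, up to 4 called genes per list and compound, and the 2 closest genes per member. The members and lists were chosen with earlier results of these data known. Promoter sequences are from RefSeq (GRCm38.p6). The steps were tested on simulated data, and figures were drawn with matplotlib 3.10.9 in Python 3.11.15.

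Groups share replicate numbers. Residuals of arrays with the same number correlated above 0.1 in every pair for DINCH (0.158 to 0.555), BDB (0.31 to 0.461) and DOS (0.239 to 0.49), so these numbers were taken to pair the arrays, from the values alone. For MEHP (-0.146 to 0.514) and DOM (0.0658 to 0.475) they were not. Replicate 2 of MEHP and DOM and replicate 3 of DINCH and DOS lay on another slide than the DMSO array of that number. These had the lowest correlation of their compound (-0.146, 0.0658, 0.158 and 0.239). All other arrays shared the slide of that DMSO array. Pairing by replicate and a shared slide therefore cannot be told apart, and the replicate block is an alternative only.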

Additional observations from a re-analysis of the deposited data

Results flagged for a closer look

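Of 65 groups of 4 arrays examined, 7 had an array standing apart from its fellows, where chance alone gives about 1 in 20. Ppard read -2.22 on DMSO replicate 4, and the nearest of the other 3 DMSO arrays read 2.12. The dimmest Ncoa1 probe read -2.94 on MEHP replicate 3, and the nearest other array read -0.72. Ppargc1b read -5.24 on BDB replicate 4, where it was not well above background, and the nearest other array read -3.59. Ppargc1a read -1.25 on DINCH replicate 1, above the nearest DINCH array at -1.80. Rxra read -0.46 on MEHP replicate 4, above the nearest MEHP array at -0.63. Ppara read -0.56 on DOM replicate 1, below the nearest at 0.10, and 0.15 on BDB replicate 2, below the nearest at 0.23.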

How the results depend on the processing

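No member changed direction while called under any alternative. The 2 members called under DINCH fell to 0 without the filter on dim probes. The 1 member called under DOM, Ppargc1b, fell to 0 with quantile normalization, with normexp background correction and without the filter. The count rose to 2 where detection on 1 array sufficed, with the Ppara probe that no DMSO array detected added. That probe entered only through the DOM arrays that detected it, so no support is drawn from its call. Leaving out an array gave 1 to 2 under DOM, with Ncor1 added without DMSO replicate 4. The 0 under MEHP rose to 1, Rxra, with quantile normalization, and leaving out an array gave 0 to 1, with Rxra called without DMSO replicate 1 or 4. The 5 combinations called between compounds fell to 1 with normexp (Ppargc1a, DINCH against DOM) and to 2 without the filter (Ppargc1a, DINCH against DOS, and Rxra, DINCH against BDB). The cause was not tested. The counts of members called against DMSO under BDB and DOS stayed at 0 under every alternative run. With the slide as a block the pairs gave 7, adding Ppargc1a for BDB against DOS and Ncoa1 for DOM against BDB. Brightness limits Ppargc1b and the dim probes of Ppara and Ppargc1a, which lay at or near background.

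With the replicate number as a block, DINCH still called Rxra (0.92, adjusted p = 0.00896) and Ppargc1a (1.21, adjusted p = 0.00632). DOM still called Ppargc1b (-1.08, adjusted p = 0.00355), though its replicate numbers were not taken to pair the arrays, so that p-value adds no support. Replicate number and slide largely coincide, so the DINCH p-values with the block are alternatives and not added support. Over the pairs of compounds the block gave 7 combinations in place of 5. It added Ppargc1a for DINCH against BDB (0.61, adjusted p = 0.0413) and for MEHP against DOS, where the MEHP numbers were not taken as pairs either. The block changed no other call of a member.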
